A study of Mus musculus with 16 samples.

Results

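The cytosolic ribosomal protein genes are the genes whose products, together with ribosomal RNA, make up the ribosome of the cytoplasm. They were chosen by name: all rows with a symbol of the form Rpl or Rps plus a number, together with Rplp0, Rplp1, Rplp2, Rpsa, Rps4x and the named relatives of these genes, leaving out S6 kinases and pseudogenes. This gave 83 genes of the 55487 counted, 31 encoding small subunit proteins, 46 encoding large subunit proteins (3 of them the P stalk proteins) and 6 paralogues or relatives (Rpl3l, Rpl10l, Rpl22l1, Rpl39l, Rps27l and Rpl7l1). A further 6 symbols fitted the pattern but were annotated as processed pseudogenes and were left out. RNA came from the apex of the heart of 16 mice, 4 in each of 4 groups, taken 4 weeks after surgery. Ctrl mice (labelled WT) carried Cardinal, a long noncoding RNA annotated as Gm12295, and KO mice were generated without it by CRISPR/Cas9. A ligature tied around the transverse aorta (TAC) raised the pressure load on the heart, while sham mice had the operation with no ligature placed. The groups are called Ctrl sham, Ctrl TAC, KO sham and KO TAC here, all male per the study's methods and weighing 25 to 30 g per the labels, with no other allele or agent given.

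Ribosomal protein transcripts are among the most abundant in most cells, and they are usually made in balanced amounts, since each ribosome needs about the same number of copies of each protein. Their translation is regulated as a group through a pyrimidine tract at the 5′ end of the mRNA, which responds to growth signals such as those of the mTOR pathway. A few have paralogues that can take the place of the standard protein, and Rpl3l, which is found almost only in heart and skeletal muscle, takes the place of Rpl3 in striated muscle. Since Cardinal was studied for its link to ribosomes and to translation in the overloaded heart, the comparisons ask whether the transcripts of the ribosome's own proteins differed with pressure overload and with the loss of Cardinal.

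Rpl3 and Rpl3l are separate genes with coding sequences distinct enough to show apart. Rpl3 (ENSMUSG00000060036) spans 80077791 to 80091868 of chromosome 15, minus strand (GRCm38, GENCODE M21), and Rpl3l (ENSMUSG00000002500) on the plus strand of chromosome 17, from 24727820 to 24736143, with 12 exon blocks that overlap no other gene. Their coding sequences were 74.3% identical over 1206 aligned bases, with no shared run longer than 22 bases. The first 90 coding bases of each (spliced, from the start codon, GENCODE M21) are shown with the bases that differ in capitals, 21 in each.
Rpl3: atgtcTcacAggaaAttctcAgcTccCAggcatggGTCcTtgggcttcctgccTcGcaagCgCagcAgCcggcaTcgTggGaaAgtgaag
Rpl3l: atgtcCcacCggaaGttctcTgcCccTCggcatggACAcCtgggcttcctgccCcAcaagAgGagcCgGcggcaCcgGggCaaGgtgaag
No stretch of 150 bases, the length of a read, of the Rpl3l transcript occurred in the transcript of another gene. Of the Rpl3 transcript, 71.0% of such stretches also occurred in 7 processed pseudogenes, which held 5.68% as many counts as Rpl3 itself. How reads with several positions were counted is not given, so the level of Rpl3 relative to Rpl3l is uncertain.

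Rps27 and its paralogue Rps27l are shown as the pair of Rps27l, another paralogue that passed the test, and their coding sequences of 252 bases each were 76.2% identical. Their first 90 coding bases are printed in the same way, with 24 differing bases in capitals in each.
Rps27: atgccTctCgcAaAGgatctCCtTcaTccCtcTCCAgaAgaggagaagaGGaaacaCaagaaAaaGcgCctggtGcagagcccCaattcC
Rps27l: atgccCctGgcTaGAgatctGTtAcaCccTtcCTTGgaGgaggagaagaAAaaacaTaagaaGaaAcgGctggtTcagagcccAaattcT
For Rps27, 98.0% of stretches were shared with 2 other genes, so its own level is uncertain, whereas Rps27l shared none. Over all 83 genes, 69 shared at least 1 stretch with another gene and 24 shared over 50% of them.

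Short motifs were counted in the promoters of the ribosomal protein genes, as a description with no test. RefSeq (GRCm38.p6) gave 75 promoters, each covering 250 bases before to 50 bases after a start, for 63 of the 83 genes. Searched on both strands, TTCCGG, the core of an ETS family site, was in 48% of them and in 14.9% of all 32851 mouse promoters. The GC box GGGCGG was in 60% of these promoters against 35.7% of all, while the E-box CANNTG was in 49.3% against 72.3%. The other motifs searched were also less frequent than in all promoters, with CCAAT in 29.3% against 37.4%, TATAAA in 9.33% against 13.6%, GGAATG in 8% against 14.7% and the MEF2 site in 1.33% against 3.19%. The upstream of 2 RefSeq promoters of Rpl3l held neither TTCCGG nor GGGCGG and had 4 E-boxes, 3 of them before the start. The other, which starts within the gene, also lacked TTCCGG and GGGCGG, had 2 E-boxes, and held the one MEF2 site among the 75 promoters, from 123 to 114 bases before the start. The upstream one is shown because Rpl3l had the largest fall of the 81 genes tested in both comparisons of TAC with sham, with the E-boxes in capitals, as chr17:24727576-24727825, plus strand.
Rpl3l promoter: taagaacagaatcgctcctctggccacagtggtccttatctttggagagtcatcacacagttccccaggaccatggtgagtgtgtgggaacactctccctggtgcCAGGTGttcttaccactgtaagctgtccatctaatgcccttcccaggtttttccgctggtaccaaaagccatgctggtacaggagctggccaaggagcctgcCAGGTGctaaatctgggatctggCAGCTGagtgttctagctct
These matches describe letters in a window and no binding was measured.

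Library totals ranged from 53169437 to 79404714 counts. The library labelled KO TAC 4 went against its label, with Cardinal at 4.55 CPM (read counts scaled by TMM to a common library size) against 0.276 to 0.553 CPM in the other 7 KO libraries and 2.69 to 8.02 CPM in Ctrl libraries. The main results that rest on it are also given without it. Of the 83 genes, 81 passed the filter on low counts and were among the 18275 genes tested. Rpl10l and Rpl39l, the testis-enriched paralogues, did not pass, with at most 1 and 28 counts in any library. Together the 83 genes held 1.10% to 1.51% of all counts in a library. Ctrl TAC 2 stood apart, with the 77 core genes (all but the 6 paralogues and relatives) at a median 0.13 log2 below the Ctrl sham mean, and KO TAC 2 had the highest median, 0.26 log2 above it. In Ctrl TAC 2 the deficit was larger for the 28 genes with transcripts under 600 bases (median -0.23) than for the 23 with transcripts over 900 bases (median -0.05). In KO TAC 2 both classes were high, at 0.29 and 0.24.

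**Figure D1:**
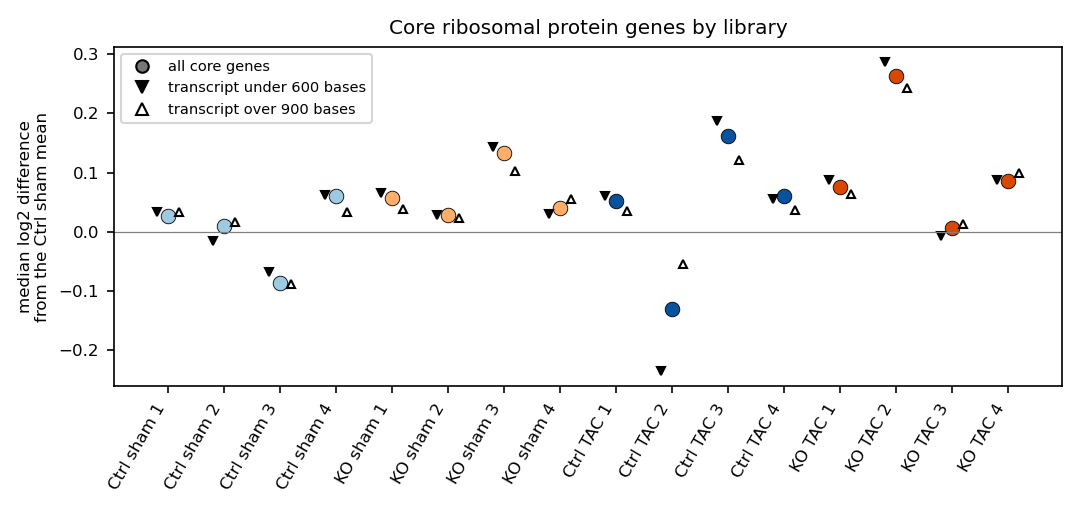
Median log2 difference of the 77 core ribosomal protein genes from their Ctrl sham mean, by library (circles, coloured by group), with the same median for transcripts under 600 bases (filled downward triangles, 28 genes) and over 900 bases (open upward triangles, 23 genes). Ctrl TAC 2 is the lowest library and KO TAC 2 the highest, and in the other libraries the median stays between -0.09 and 0.16.

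In Ctrl sham hearts the core genes had a median of 195 CPM per kilobase and quartiles of 149.9 and 255 CPM per kilobase. The highest levels were those of Rps2 (451 ± 28.1 CPM per kilobase, SD, n = 4), a small subunit protein near the mRNA entry channel, and Rplp1 (416 ± 14.1), an acidic protein of the P stalk. Rps14 (364 ± 28.0) and Rpl41 (348 ± 6.62), which encodes the smallest ribosomal protein, followed. These neighbours in the order, Rps14 and Rpl41, did not differ beyond their spread. Of the paralogues and relatives Rpl3l was highest, at rank 60 of 83 (144 ± 11.1 CPM per kilobase), above Rpl3 at rank 75 (90.5 ± 7.2). Rps27l (65.8 ± 3.22), Rpl22l1 (33.5 ± 1.81) and Rpl7l1 (26.4 ± 1.12) were lower. Rps20 also ranked low at 22.9 ± 1.09 CPM per kilobase, but its annotated transcript was 3706 bases long, and per kilobase of coding sequence it stood at 238 CPM. The order depends on the length used: per kilobase of coding sequence Rpl41 (2029 CPM), Rplp1 (607), Rps29 (596) and Rps24 (531) stood above Rps2 (512), while Rpl3l (162) was still above Rpl3 (101). The place of Rpl3 also depends on how reads shared with its pseudogenes were counted, which is not given. Rpl39l reached 0.0917 CPM per kilobase in Ctrl sham, and Rpl10l had no count in that group.

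**Figure D2:**
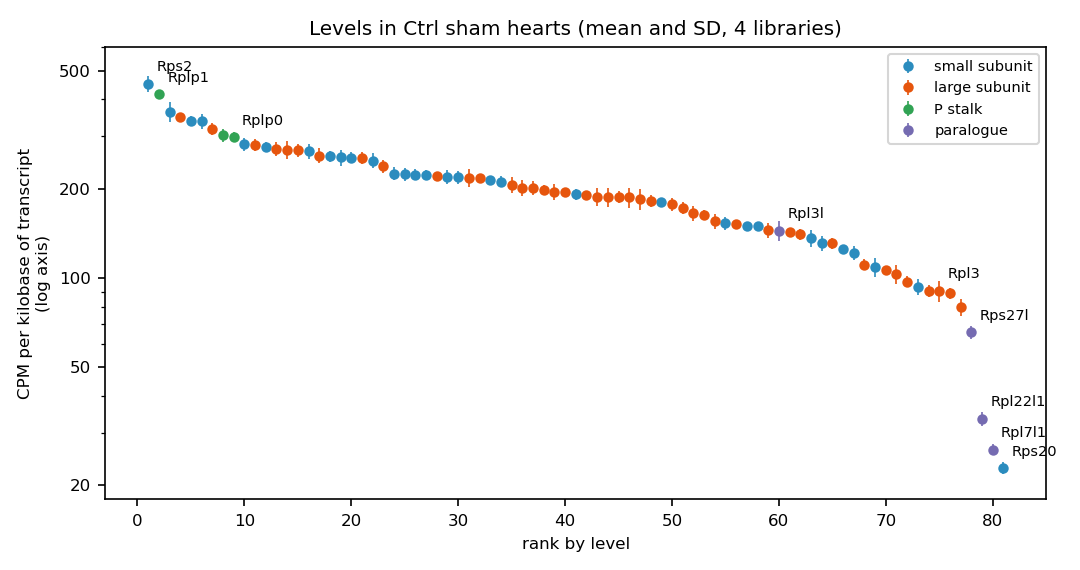
Level of each ribosomal protein gene in Ctrl sham hearts in CPM per kilobase of transcript (log axis, mean and SD of 4 libraries), ranked, with small subunit, large subunit, P stalk and paralogue genes in different colours. Rpl10l and Rpl39l, which were near 0, are not drawn. Rps2 is highest at 451, and Rpl3l at 144 lies above Rpl3 at 90.5.

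In Ctrl hearts, TAC left nearly all ribosomal protein transcripts near their sham level on the TMM scale and shifted 5 genes, 4 of them paralogues or relatives. The median log2 fold change of the 81 genes tested was 0.03, and their median size of change was 0.04 log2 against 0.18 for all genes tested. The genes that passed the test (edgeR's quasi-likelihood test, Benjamini-Hochberg adjusted p under 0.05 over all 18275 genes) were 5 of 81, or 6.17%, while 20% of all genes passed. Rpl3, Rps27l and Rpl7l1 rose, and Rpl3l and Rpl22l1 fell. None of the 31 small subunit genes passed, and of the 46 large subunit genes Rpl3 did.

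Rpl3l fell after TAC in both genotypes. It stood at 219.9, 187, 188 and 198 CPM in the Ctrl sham libraries and at 135, 136, 139 and 110.2 CPM in the Ctrl TAC libraries. The highest Ctrl TAC library was below the lowest Ctrl sham library, and the change was -0.61 ± 0.08 log2 (SE, adjusted p 3.38e-05, edgeR). In KO hearts Rpl3l went from 181, 174, 199.8 and 200.5 CPM in sham to 99.9, 94.8, 81.2 and 90.8 CPM in TAC, a change of -1.04 ± 0.08 log2 (adjusted p 3.25e-08). All KO TAC libraries, including the one labelled KO TAC 4, were thus below every other library. In whole tissue, fewer cells of a type and less RNA per cell cannot be told apart.

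Rpl3, which encodes the standard protein that reaches toward the peptidyl transferase center, went the other way. Its levels were 108, 126, 126 and 129 CPM in Ctrl sham and 152, 169, 171 and 184 CPM in Ctrl TAC. The groups did not overlap, and Rpl3 rose by 0.47 ± 0.07 log2 (adjusted p 8.37e-05, edgeR). In KO hearts it rose by 0.63 ± 0.07 log2 (adjusted p 1.35e-06), from 130.1, 129, 123 and 123 CPM in sham to 174, 204, 203 and 200.3 CPM in TAC. Its sharing pseudogenes went from 7.11 to 9.83 CPM of the unscaled total in Ctrl and from 6.60 to 11.7 CPM in KO, and adding the counts of all such pseudogenes to their genes left the number of genes that passed unchanged at 5 in Ctrl and 9 in KO.

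In counts, the balance of the pair therefore turned over. The log2 ratio of Rpl3l to Rpl3 counts was 1.03, 0.57, 0.58 and 0.62 in Ctrl sham and 0.47, 0.43, 0.70 and 0.71 in KO sham, so that Rpl3l was ahead in each sham library. It was -0.17, -0.32, -0.30 and -0.74 in Ctrl TAC and -0.80, -1.10, -1.32 and -1.14 in KO TAC, so that Rpl3 was ahead in each TAC library. Which gene is ahead, and the shares below, depend on how reads shared by Rpl3 and its pseudogenes were counted, which is not given. The ratio changed with TAC by -1.08 ± 0.17 log2 in Ctrl and by -1.67 ± 0.13 log2 in KO (SE, exact permutation test over 70 relabellings, two-sided p 0.0286 and adjusted p 0.0381 over 4 comparisons for each), where 0.0286 is the smallest p this design allows. Without KO TAC 4 the change in KO was -1.65. Per length of transcript, Rpl3l made up 61.4% ± 3.56 of the pair in Ctrl sham, 59.4% ± 2.44 in KO sham, 43.0% ± 4.15 in Ctrl TAC and 31.6% ± 3.29 in KO TAC (SD, n = 4). The sum of both genes moved less, from 235 ± 5.86 CPM per kilobase in Ctrl sham to 219.7 ± 7.43 in Ctrl TAC and from 231 ± 7.2 in KO sham to 211 ± 7.90 in KO TAC.

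**Figure D3:**
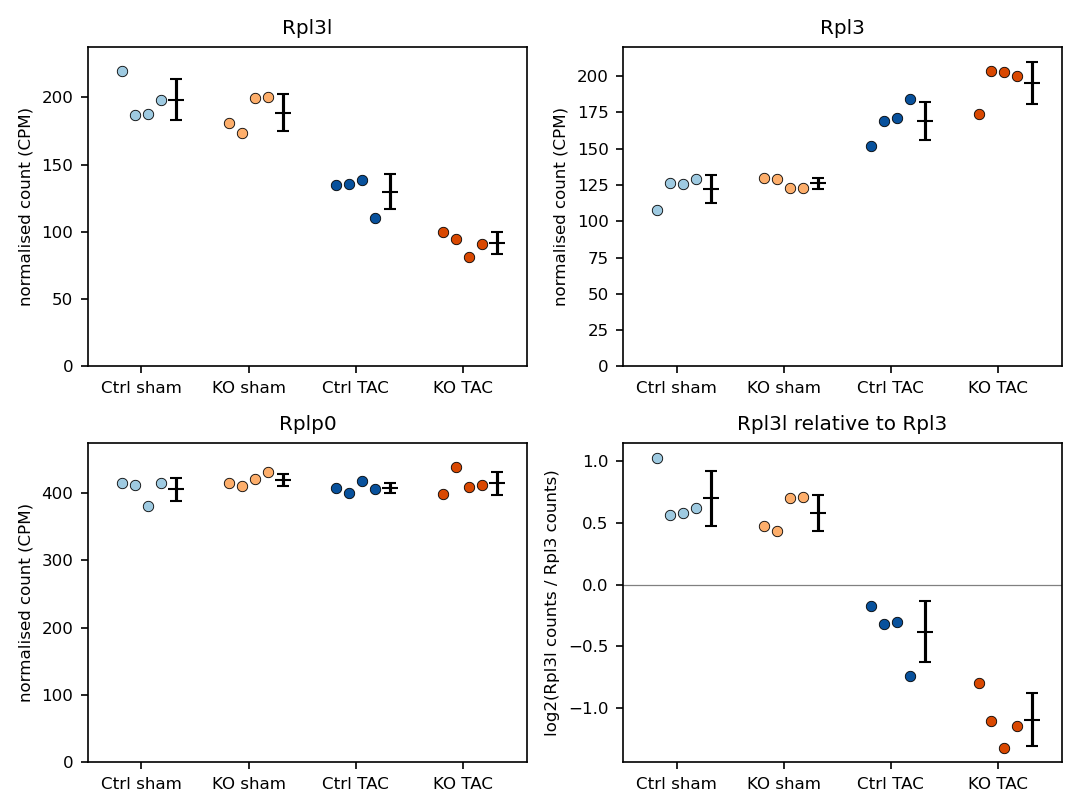
Normalised counts (CPM) of Rpl3l, Rpl3 and Rplp0 and the log2 ratio of Rpl3l to Rpl3 counts in each library (points), with the mean and SD of the 4 libraries of a group beside them. Rpl3l falls and Rpl3 rises from sham to TAC with no overlap in either genotype, the ratio crosses 0, and Rplp0 stays between 380 and 439 CPM.

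Markers of cardiomyocytes, fibroblasts and macrophages also changed with TAC. The 10 endothelial markers had median log2 fold changes of -0.002 in Ctrl and 0.006 in KO. Of 10 cardiomyocyte markers, 5 fell and 1 rose with TAC in Ctrl and 7 fell in KO, where 9.6% of all genes fell and 10.4% rose in Ctrl and 16.5% fell in KO. Their summed level was 60218 to 68511 CPM in Ctrl sham, 60851 to 66514 in KO sham, 52907 to 57222 in Ctrl TAC and 46192 to 47889 in KO TAC. Myh6, the main myosin heavy chain of the adult mouse ventricle, fell by 0.30 in Ctrl hearts and by 0.63 in KO hearts on the log2 scale (adjusted p 0.0126 and 7.84e-06, edgeR). Relative to the sum of these markers, Rpl3l was at 3.01 to 3.22 CPM per 1000 marker CPM in Ctrl sham, 2.7 to 3.3 in KO sham, 2.08 to 2.47 in Ctrl TAC and 1.70 to 2.12 in KO TAC, a measure added after its values were seen. On that scale sham and TAC did not overlap in either genotype, and the TAC groups overlapped. Several of these markers changed with TAC themselves, so their sum does not measure the number of cardiomyocytes. Summed fibroblast markers (10 genes) rose from 1316 to 1535 CPM in Ctrl sham to 1790 to 2369 in Ctrl TAC and 2566 to 2818 in KO TAC, and summed macrophage markers (10 genes) from 199 to 267 CPM to 279 to 343 and 303 to 421. Of the fibroblast markers, 9 had a log2 fold change with TAC above 0 and 1 below, in Ctrl and in KO. No marker of the cardiomyocyte, fibroblast and macrophage lists was at 0 in any group. The part of these cell types in the change of Rpl3 and Rpl3l was not tested.

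The P stalk genes, whose products recruit elongation factors to the ribosome, had no member past the test in any comparison. Rplp0, often used as a reference gene, was at 405 ± 16.5 CPM in Ctrl sham, 419 ± 8.98 in KO sham, 408 ± 7.5 in Ctrl TAC and 414 ± 17.5 in KO TAC (SD, n = 4). Its log2 fold change with TAC was 0.01 ± 0.04 in Ctrl and -0.02 ± 0.04 in KO (adjusted p 0.913 and 0.817, edgeR). Rplp1 had 0.12 ± 0.07 and 0.14 ± 0.07, and Rplp2 -0.01 ± 0.07 and -0.03 ± 0.07. The Ctrl value of Rplp1 depends on 1 library, with an adjusted p of 0.283 in full and 0.0369 without Ctrl TAC 2. With library totals in place of TMM factors, Rplp0 turned to 0.15 in KO (adjusted p 0.0156), and Rplp1 passed with 0.22 in Ctrl and 0.31 in KO (adjusted p 0.0327 and 0.00247).

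Among the other paralogues, Rps27l, a p53-inducible relative of Rps27, was higher in TAC hearts. It was at 31.3, 31.6, 34.0 and 34.4 CPM in Ctrl sham and at 43.7, 34.1, 43.0 and 41.4 CPM in Ctrl TAC. Only Ctrl TAC 2 fell within the range of sham, and Rps27l rose by 0.31 ± 0.08 log2 in Ctrl hearts and by 0.27 ± 0.08 log2 in KO hearts (adjusted p 0.00962 and 0.0116, edgeR). Without KO TAC 2, the adjusted p in KO was 0.0511. Rps27 itself had log2 fold changes of -0.06 ± 0.14 and -0.02 ± 0.14. The share of Rps27l in the pair per length was 18.2% to 21.6% in Ctrl sham and 22.2% to 28.3% in Ctrl TAC.

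Rpl22l1, the paralogue of the RNA-binding protein Rpl22, was lower in TAC hearts, from 17.8, 18.8, 17.7 and 19.8 CPM in Ctrl sham to 15.2, 14.7, 16.9 and 15.4 CPM in Ctrl TAC. The groups did not overlap in Ctrl, though KO TAC 2 (18.1 CPM) lay within the range of KO sham, and the change was -0.25 ± 0.08 log2 in Ctrl and -0.28 ± 0.08 log2 in KO (adjusted p 0.0269 and 0.00817, edgeR). The Ctrl call was lost when any of 5 Ctrl libraries was left out, with an adjusted p of up to 0.0756, and with library totals the adjusted p was 0.191 in Ctrl and 0.251 in KO. Rpl22l1 made up 13.2% ± 0.534 of the pair per length in Ctrl sham and 11.0% ± 0.450 in Ctrl TAC, and 13.0% ± 0.888 in KO sham and 9.85% ± 0.432 in KO TAC. Rpl7l1, a relative of Rpl7 linked to assembly of the large subunit, rose with TAC in Ctrl (0.15 ± 0.05 log2, adjusted p 0.0378) and had 0.01 ± 0.05 in KO (adjusted p 0.871). That Ctrl call was lost without any of 5 Ctrl libraries (adjusted p up to 0.114), and the interaction for Rpl7l1 was -0.14 ± 0.07 (adjusted p 0.480). Animals numbered from 25 are Ctrl TAC 2, 3 and 4 and KO TAC 4. All are TAC libraries, so this series and surgery cannot be fully told apart. With a term for these animals, Rpl7l1 had 0.07 in Ctrl (adjusted p 0.492, edgeR), and the adjusted p of Rpl22l1 in Ctrl was 0.118.

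**Figure D4:**
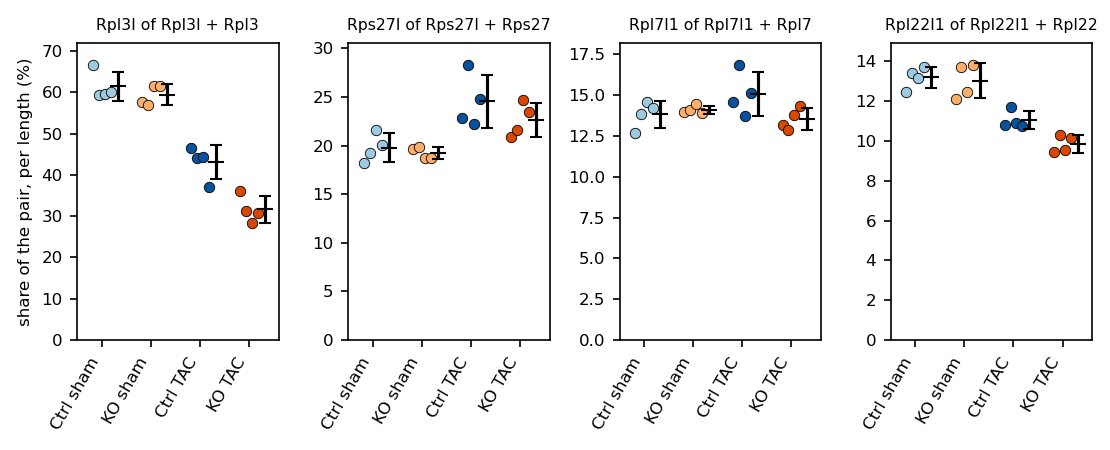
Share of each paralogue in the sum with its standard gene, per length of transcript (percent), in each library, with the mean and SD of 4 libraries. The Rpl3l share goes from 61.4% in Ctrl sham to 43.0% in Ctrl TAC and 31.6% in KO TAC, and the Rpl22l1 share from 13.2% to 11.0% and 9.85%. The Rps27l share is 19.8% in Ctrl sham, 24.5% in Ctrl TAC and 22.6% in KO TAC, and that of Rpl7l1 stays between 12.7% and 16.9%.

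In KO hearts TAC shifted 9 of the 81 genes, or 11.1%, against 34.3% of all genes tested. Their median log2 fold change was 0.04, and the median size of change was 0.06 log2 against 0.23 for all genes. Besides Rpl3 and Rps27l, Rpl39, Rpl12, Rpl22 and Rpl4 rose, and Rps2 fell in addition to Rpl3l and Rpl22l1. Rps2 was at 466, 446, 492 and 459 CPM in KO sham and at 386, 410.1, 365 and 411 CPM in KO TAC. The groups did not overlap, and Rps2 fell by 0.24 on the log2 scale (SE 0.06, adjusted p 0.00235, edgeR). In Ctrl hearts it had 0.01 ± 0.06 (adjusted p 0.916). With library totals Rps2 had -0.08 in KO (adjusted p 0.238). For Rps2, 49.8% of 150-base stretches were shared with 22 pseudogenes.

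Rpl39, a short protein of the exit tunnel, rose by 0.36 ± 0.12 log2 with TAC in KO (adjusted p 0.0349). It was at 52.5, 56.8, 62.6 and 54.4 CPM in KO sham and at 65.5, 90.1, 66.5 and 68.3 CPM in KO TAC. The highest value was that of KO TAC 2, and without that library the adjusted p was 0.126. The call was also lost without KO sham 1, 2 or 4. Rpl12, which sits at the base of the P stalk, rose by 0.22 ± 0.06 log2 (adjusted p 0.00811), in every fit without 1 library. Rpl22 rose by 0.17 ± 0.06 and Rpl4, which lines the exit tunnel, by 0.13 ± 0.05 (adjusted p 0.0433 and 0.0367), and these calls were lost in 9 and 7 of the 16 fits that left out 1 library. Without the library labelled KO TAC 4, Rpl4 had an adjusted p of 0.0647, and the other 8 genes still passed. Ctrl sham 4 and KO sham 1, 2 and 3 have animal numbers that start with 33. All are sham libraries, so this series and surgery cannot be fully told apart. With a term for these animals Rpl3, Rpl3l, Rps27l and Rps2 still passed. The adjusted p (edgeR) was then 0.0663 for Rpl12, 0.0840 for Rpl39, 0.0997 for Rpl22, 0.139 for Rpl4 and 0.0576 for Rpl22l1. The size of these changes and the calls depend on the scaling, while the 9 called genes kept their direction: with library totals in place of TMM factors, the median over all genes tested was 0.11 for Ctrl and 0.16 for KO, and the calls became 18 (17 higher and 1 lower) in Ctrl and 58 (57 higher and 1 lower) in KO. Relative to those shifts, the medians of the ribosomal protein genes, 0.13 and 0.21, lay close to those of all genes. The share of all genes called with library totals is not given here, so these counts do not set the ribosomal protein genes apart. Mitochondrially encoded genes took 26.8% to 28.8% of counts in sham libraries and 21.9% to 27.0% in TAC libraries, and their part in this shift was not tested.

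**Figure D5:**
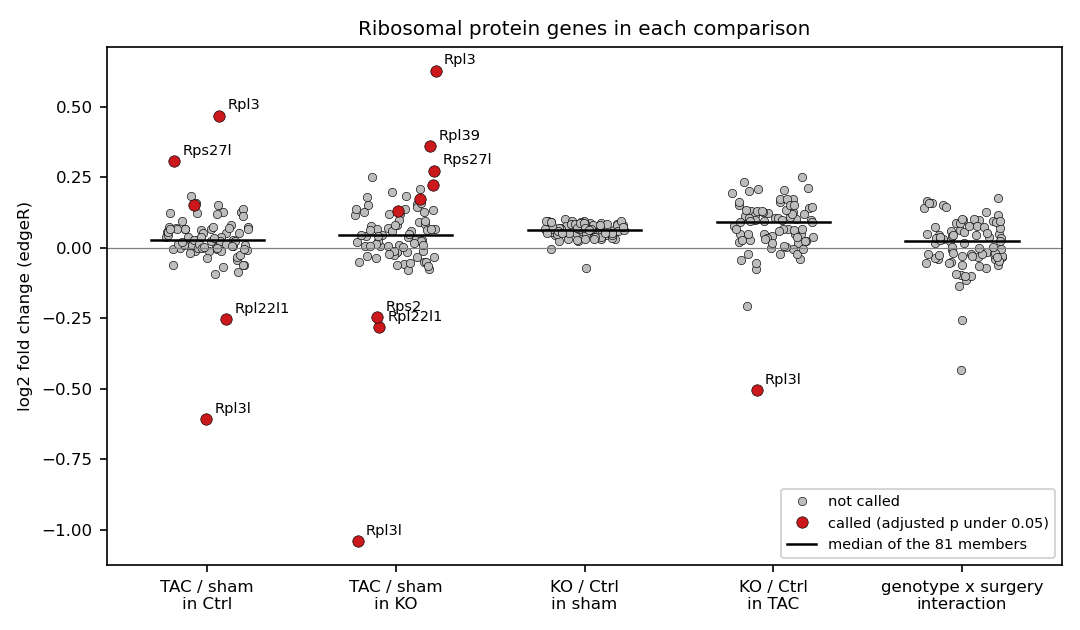
Log2 fold change (edgeR) of each of the 81 ribosomal protein genes tested, in the 5 comparisons, with genes under an adjusted p of 0.05 in red and the median as a bar. Most genes lie near 0, while Rpl3 and Rpl3l stand apart in both comparisons of TAC with sham and Rpl3l is the gene that passed in KO against Ctrl after TAC.

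In sham hearts the loss of Cardinal was accompanied by no ribosomal protein gene that passed the test. The count was 0 of 81 with edgeR and 0 with DESeq2. Of the 81 genes, 0 had an unadjusted p under 0.05 with edgeR, against 479 of all 18275 genes. In this comparison 0.0% of all genes passed, so Cardinal did not pass either. It was at 3.24 to 3.86 CPM in Ctrl sham and 0.297 to 0.553 CPM in KO sham. The spread in that fit was estimated over all 16 libraries, including KO TAC 4, whose Cardinal level went against its label. The lack of calls therefore does not show that levels were equal. The median log2 fold change was 0.06, with 79 of the 81 genes above 0, a shift of the size of the spread among libraries: the library medians of the core genes ran from -0.09 to 0.06 in Ctrl sham and from 0.03 to 0.13 in KO sham. Rpl3 had 0.05 ± 0.07 and Rpl3l -0.07 ± 0.08 log2. The ratio of the pair differed by -0.12 ± 0.13 log2 (exact permutation test, two-sided p 0.400), with overlapping groups.

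Compared with Ctrl TAC, KO TAC hearts differed in 1 ribosomal protein gene, Rpl3l. It was lower in KO TAC than in Ctrl TAC by 0.50 ± 0.08 on the log2 scale (adjusted p 0.00753, edgeR), 1 of 81 genes, while 2.68% of all genes passed, 1.36% higher and 1.32% lower. Leaving out the library labelled KO TAC 4 gave -0.50 log2 (adjusted p 0.0122), and it held in every one of the 16 fits without 1 library (-0.57 to -0.45, adjusted p up to 0.0324). Ctrl TAC 2, 3 and 4 and KO TAC 4 have animal numbers that start with 25, and the labels do not say what these numbers stand for. With that series as a term, Rpl3l had -0.53 ± 0.09 (adjusted p 0.0461). The series and the label of KO TAC 4 cannot be told apart within it, since KO TAC 4, whose Cardinal level was that of Ctrl, is its one library labelled KO. Within the series, Ctrl TAC 2, 3 and 4 had 136, 139 and 110.2 CPM and KO TAC 4 had 90.8 CPM, and outside it, Ctrl TAC 1 had 135 CPM and KO TAC 1, 2 and 3 had 99.9, 94.8 and 81.2 CPM.

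The ratio of Rpl3l to Rpl3 was also lower in KO TAC, by 0.71 ± 0.16 on the log2 scale (exact permutation test, two-sided p 0.0286, adjusted p 0.0381), with the groups separate at -0.74 and -0.80. Without KO TAC 4 the difference was -0.69 (exact p 0.0571). Rpl3 itself had 0.21 ± 0.07 log2 (adjusted p 0.102), and Rps2 -0.21 ± 0.06 (adjusted p 0.0543), which passed with DESeq2 along with Rpl4. The share of all genes that DESeq2 called between the TAC groups is not given here. Of the cardiomyocyte markers, 2 of 10 passed as lower in KO TAC, where 1.32% of all genes did. They were Myh6, by 0.39 log2, and Ryr2, by 0.34 log2 (adjusted p 0.0184 and 0.0374, edgeR). All 10 had a log2 fold change below 0, with a median of -0.16. Per 1000 CPM of these markers, Rpl3l was at 2.08 to 2.47 CPM in Ctrl TAC and 1.70 to 2.12 in KO TAC, which overlap. The part of such cells in the difference of Rpl3l was not tested. Over all 81 genes the median was 0.09 log2, with 69 above 0, and this shift rested on single libraries: it was 0.02 without Ctrl TAC 2 and 0.03 without KO TAC 2.

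The interaction, which compares the response to TAC between genotypes, was passed by 0 of 81 genes with edgeR, against 0.0109% of all genes, and 2 genes had an unadjusted p under 0.05. These were Rpl3l, with -0.43 ± 0.11 log2 (adjusted p 0.200), and Rps2, with -0.26 ± 0.08 (adjusted p 0.259). DESeq2 called 1 of the ribosomal protein genes, Rpl3l (adjusted p 0.0431). The share of all genes that DESeq2 called for the interaction is not given here, so this call has no background beside it. Without KO TAC 4, edgeR gave -0.43 for Rpl3l (adjusted p 0.221), and DESeq2 was not run without it. The larger fall of Rpl3l in KO than in Ctrl was thus past the threshold with DESeq2 and not with edgeR.

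Genes that serve the ribosome outside the rule were counted for comparison. Fau, Rack1 and Rpl36al, which encode ribosomal subunit proteins under other names, did not pass in any comparison. Of 92 ribosome biogenesis genes, 20 rose and 1 fell with TAC in Ctrl, against 10.4% and 9.6% of all genes, and 17 rose and 6 fell in KO, against 17.8% and 16.5%. The list's median was 0.07 log2 in Ctrl and 0.06 in KO. Rrp12, which takes part in export of the small subunit precursor, rose by 0.91 ± 0.13 log2 in Ctrl and 0.71 ± 0.13 in KO (adjusted p 9.58e-05 and 3.84e-04). In Ctrl, Gar1, a protein of H/ACA small nucleolar particles, rose by 0.40 ± 0.09, and Bop1, of the large subunit processing complex, by 0.36 ± 0.06. In KO, the helicase Dhx37 rose by 0.40 ± 0.08 and Rrs1, which helps place the 5S particle, fell by 0.35 on the log2 scale. After TAC, 1 of the 92 differed between genotypes, where 2.68% of all genes passed. It was Emg1, a methyltransferase for 18S rRNA, at -0.20 ± 0.05 (adjusted p 0.0414, edgeR).

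Of 15 genes for RNA polymerase I and its factors, 1 rose and 2 fell with TAC in Ctrl, and 3 rose and 2 fell in KO, shares near the 20% and 34.3% of all genes that passed. Polr1e rose by 0.61 ± 0.08 and 0.47 ± 0.08 log2, while Polr1a, the largest subunit, fell by 0.33 and 0.37 on the log2 scale. Taf1a, of the promoter selectivity factor, fell by 0.21 and 0.36. Of 27 regulators of ribosomal protein expression, 3 rose and 3 fell in Ctrl, and 4 rose and 8 fell in KO, beside the same 20% and 34.3%. Myc, a transcription factor for ribosome genes, rose by 0.58 ± 0.14 and 0.54 ± 0.13 log2, Pabpc1, the poly(A)-binding protein, by 0.30 ± 0.05 and 0.42 ± 0.05, and Eif4ebp2, an inhibitor of cap-dependent initiation, fell by 0.31 and 0.48. Of 16 chaperones and modifying enzymes of ribosomal proteins, 1 passed in Ctrl and 2 in KO, against 20% and 34.3% of all genes. Usp16, a deubiquitinase, rose by 0.28 ± 0.06 and 0.37 ± 0.06. Mettl18, the enzyme that methylates a histidine of Rpl3, fell by 0.50 on the log2 scale with TAC in KO (SE 0.15, adjusted p 0.0126) and had -0.22 ± 0.15 in Ctrl (adjusted p 0.342). No gene of the polymerase I, regulator and chaperone lists passed between genotypes, where 2.68% of all genes passed after TAC and 0.0% in sham.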

How the data were processed

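Poly(A) RNA from the heart apex was sequenced as paired 150-base reads. The authors deposited raw read counts per Ensembl gene for each mouse, with no normalization. Their processing notes name cutadapt 2.3, FastQC, HISAT2 2.1.0, edgeR 3.26.1 and GRCm38. The counting program, its annotation, and its treatment of strand and of reads with several positions are not given in the sources used here. Columns were matched to mice by animal number. Replicates were numbered in sample order, so the numbers pair nothing, and p-values measure the spread between mice.

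Symbols and positions came from GENCODE M21, which held 99.5% of the identifiers. Of the 3 list genes with other symbols there, Twistnb, Cd3eap and Znrd1 were used. Genes were filtered with filterByExpr and scaled by TMM in edgeR 4.0.16 (R 4.3.3). A quasi-likelihood model with 1 mean per group (robust) was fitted to all 16 libraries and 5 contrasts tested, with Benjamini-Hochberg adjustment over 18275 genes. The standard error was the log2 fold change divided by the square root of F. CPM uses TMM-scaled totals, and levels between genes are per kilobase of the principal transcript (best APPRIS rank, then shortest), whose choice can move them. The Rpl3l to Rpl3 count ratio was tested by exact permutation. Precision is limited by 4 mice per group. The fit was tested on simulated data with 200 changed genes.

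The members and lists were chosen with earlier results of these data known. Named genes were Rpl3, Rpl3l, Rplp0, Rplp1, Rplp2, the paralogues tested, the 5 called members with the largest rise and fall per contrast, the 5 highest and lowest levels per length in Ctrl sham, and the 3 called genes with the largest change per list and contrast. Others were named after their values were seen. Some genes that this rule or the lists name are not reported here. Alternatives were RLE and upper-quartile factors, library totals, DESeq2 1.42.0, other filters, an adjusted p under 0.01, animal-number terms, fits to 8 libraries and leaving out each library. A fit without both Ctrl TAC 2 and KO TAC 4, and one adding the counts of pseudogenes that share a 150-base stretch, were chosen after seeing the data.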

Additional observations from a re-analysis of the deposited data

Results flagged for a closer look

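Single libraries that stood apart from the other 3 of their group were looked for by Dixon's test (gap over range above its 95% critical value) in 72 groups of 4, covering 15 named genes and 3 summary measures. Of these, 9 (12.5%) were past the limit, where chance gives about 1 in 20. For Rpl3, Ctrl sham 1 was low at 108 CPM against 126 to 129, and KO TAC 1 was low at 174 CPM against 200.3 to 204. For Rpl3l, Ctrl TAC 4 was low at 110.2 CPM against 135 to 139. The log2 ratio of Rpl3l to Rpl3 was high in Ctrl sham 1, at 1.03 against 0.57 to 0.62. Rpl39 was high in KO TAC 2, at 90.1 CPM against 65.5 to 68.3, and the Rpl39 call in KO was lost without that library, as it was without KO sham 1, 2 or 4. Rplp0 was low in Ctrl sham 3, at 380.4 CPM against 411 to 414, and Rplp1 high in KO sham 3, at 234 CPM against 210.5 to 213. Rpl12 was low in Ctrl sham 3, at 103 CPM against 112 to 114, and high in KO sham 4, at 114 CPM against 109 to 109.5. The ratio between the TAC groups had an exact p of 0.0571 without KO TAC 1. No cause of these gaps was tested.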

How the results depend on the processing

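No paired analysis was possible because the labels carry no replicate numbers shared between groups. The rise of Rpl3 and the fall of Rpl3l with TAC in both genotypes, and the lower Rpl3l in KO TAC than in Ctrl TAC, kept their direction and their side of the threshold under all 25 alternatives in which they were recomputed. The number of ribosomal protein genes called with TAC in Ctrl was 5, and it was 3 at an adjusted p under 0.01, 18 with library totals and 3 when the model held a term for animals numbered from 25, and it ranged from 3 to 7 without single libraries, with 3 without Ctrl sham 2 or without Ctrl TAC 4. In KO it was 9, and it was 5 at an adjusted p under 0.01, 58 with library totals and 4 when it held one for animals numbered from 33, and it ranged from 5 to 12 without single libraries, being 5 without KO TAC 2. Between the TAC groups it was 1, and it was 2 with library totals, 2 with at least 10 counts in every library and 3 with DESeq2, with 1 to 2 without single libraries (2 without Ctrl sham 1 or without Ctrl TAC 4). The interaction count was 0 and became 1 with DESeq2. The shares of all genes called under these other settings are not given here. Rplp0 with TAC in KO turned from -0.02 to 0.15 log2 (adjusted p 0.0156) with library totals, which raise the median of all genes. The ratio of Rpl3l to Rpl3 between the TAC groups was -0.83 to -0.63 without single libraries, with an exact p of 0.0571 in 6 of 8 cases. Unless a sentence above names the construction, the cause was not tested. The median over the genes with TAC in KO was 0.21 with library totals, against 0.04. The larger fall of Rpl3l in KO had -0.43 log2 with DESeq2 (adjusted p 0.0431). Depth was not limiting for the members tested, whose lowest count in any library was 864.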

Other observations

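Rps2 and Rpl3l, the members that fell with TAC in KO hearts together with Rpl22l1, lie near each other on chromosome 17, both on the plus strand. With TAC in Ctrl hearts, Rpl3l fell and Rps2 did not pass. Rps2 spans 24718116 to 24721929 and Rpl3l starts at 24727820 (GRCm38, GENCODE M21), with 5890 bases and the gene Ndufb10 between them. This position was looked up after the values were seen.

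Over the other lists of cell type markers, 0 of 10 endothelial genes passed with TAC in Ctrl and 1 rose in KO, and 3 and 4 of 8 smooth muscle and pericyte genes rose, where 10.4% of all genes rose in Ctrl and 17.8% in KO. Of 10 skeletal muscle genes, 6 were tested. In Ctrl 2 of them rose, Acta1 by 3.91 log2 and Tnnt3 by 1.54 log2, and 1 rose and 1 fell in KO. The paper used Acta1 as a marker of hypertrophy in the heart, so it is not particular to skeletal muscle here. Myog, which marks skeletal muscle precursors, had 0 counts in 3 of the 4 groups.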
